A study of Mus musculus with 2 samples.

Results

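Genes of the Polycomb repressive complexes were followed across the cell states of a mouse reprogramming culture at day 16. The 10 genes were taken by name: Ezh2, Ezh1, Eed, Suz12, Jarid2 and Mtf2 of Polycomb repressive complex 2 (PRC2), and Rnf2, Cbx7, Cbx2 and Pcgf6 of Polycomb repressive complex 1 (PRC1). All 10 were among the 17408 genes of the deposited table. The cells were mouse embryonic fibroblasts carrying STEMCCA, a cassette of the reprogramming factors that doxycycline switches on, cultured in embryonic stem cell medium with serum, leukaemia inhibitory factor and ascorbic acid on the way to induced pluripotent stem cells (iPSCs). They were taken unsorted and profiled by droplet single-cell 3' RNA-seq (Chromium V2 chemistry), where a unique molecular identifier (UMI) marks every captured RNA molecule. There were 2 libraries of 1 group, here replicate 1 (3109 cells) and replicate 2 (3914 cells). Both carried the cassette and doxycycline, there was no untreated control, and the labels give neither strain nor sex nor whether the libraries came from separate cultures. The study describes day 16 cells from 2 independent STEMCCA mouse systems, and which system gave which library is not stated. Each p-value rests only on the spread between these libraries, which the test in part pools over all tested genes. In that spread a difference between mouse systems and one between cultures cannot be told apart.

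Polycomb proteins keep developmental genes silent. PRC2 methylates histone H3 at lysine 27 through its enzyme subunit, Ezh2 or Ezh1, which needs Eed and Suz12 to work, while accessory subunits such as Jarid2 and Mtf2 bring the complex to its sites. PRC1 ubiquitinates histone H2A through the ligase Rnf2 (Ring1B); its canonical form holds a Cbx protein that reads the PRC2 mark, and its variant forms hold other Pcgf proteins, among them Pcgf6. In embryonic stem cells Ezh2, Mtf2, Jarid2 and Cbx7 are well known as the abundant forms, and Ezh2 is also well known to be made by dividing cells.

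On GRCm38 the PRC2 genes are Ezh2 (chr6:47530139-47595341, minus strand), Ezh1 (chr11:101191115-101226463, minus strand), Eed (chr7:89954654-89980983, minus strand), Suz12 (chr11:79993106-80034123, plus strand), Jarid2 (chr13:44729474-44921643, plus strand) and Mtf2 (chr5:108065674-108109004, plus strand). Those of PRC1 are Rnf2 (chr1:151458004-151500955, minus strand), Cbx7 (chr15:79915807-79971119, minus strand), Cbx2 (chr11:119022962-119031270, plus strand) and Pcgf6 (chr19:47033617-47050906, minus strand). Ezh1, Suz12 and Cbx2 thus share a chromosome.

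The promoter windows of 3 members are shown because of what follows: Ezh2 and Ezh1, the alternative enzymes of PRC2, moved in opposite directions, and Suz12 had the one match found to an E2F site, a motif common at genes of dividing cells. Each window is RefSeq sequence on GRCm38.p6, runs 5′ to 3′ on the strand of the gene, and covers 250 bases before and 50 bases after the annotated start. Ezh2 lies on the minus strand (chr6:47594981-47595280), Ezh1 on the minus strand (chr11:101226414-101226713) and Suz12 on the plus strand (chr11:79992856-79993155). Capitals mark the match.
Ezh2: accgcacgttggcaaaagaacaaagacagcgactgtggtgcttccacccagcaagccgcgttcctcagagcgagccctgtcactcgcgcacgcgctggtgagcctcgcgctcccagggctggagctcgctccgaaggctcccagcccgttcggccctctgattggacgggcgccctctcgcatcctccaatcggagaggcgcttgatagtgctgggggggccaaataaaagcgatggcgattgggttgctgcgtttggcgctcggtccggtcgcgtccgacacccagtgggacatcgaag
Ezh1: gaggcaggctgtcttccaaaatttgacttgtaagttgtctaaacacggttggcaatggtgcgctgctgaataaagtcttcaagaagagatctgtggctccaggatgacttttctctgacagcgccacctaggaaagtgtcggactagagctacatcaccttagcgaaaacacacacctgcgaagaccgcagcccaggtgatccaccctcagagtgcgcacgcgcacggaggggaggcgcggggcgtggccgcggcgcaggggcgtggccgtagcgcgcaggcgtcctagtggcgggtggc
Suz12: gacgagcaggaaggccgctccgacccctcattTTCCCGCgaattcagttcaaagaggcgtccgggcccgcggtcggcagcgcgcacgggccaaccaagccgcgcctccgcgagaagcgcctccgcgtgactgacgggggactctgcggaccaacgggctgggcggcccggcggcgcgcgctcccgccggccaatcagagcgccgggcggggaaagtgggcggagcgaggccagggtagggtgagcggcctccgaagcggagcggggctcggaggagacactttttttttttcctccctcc
The match in Suz12 is to GCGGGAA on the opposite strand, 212 to 218 bases before the start. Windows were found for 9 of the 10 members (11 windows, as Jarid2 and Mtf2 have more than 1 start), and the other 10 windows had no match to GCGGGAA or GCGCGAA on either strand. None of the 11 held the E-box CACGTG, which reads the same on both strands. Among 7053 windows of genes that reached 0.1 UMIs per 10000 on average here, 11.2% held either E2F core and 10.4% the E-box, so 1 match in 11 windows is near the share of all. No match says only that these letters are not in the window.

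Cells were grouped without the members, so that no Polycomb gene decided its own class. Clustering on other genes gave 16 clusters, of which 12 held at least 30 cells in both libraries. Cluster 6 was pluripotent-like (146 cells in replicate 1 and 391 in replicate 2), and the summed level of 10 pluripotency markers there was 63.4 and 68.0 UMIs per 10000 in the 2 libraries, against 0.797 and 0.856 in all other cells. Clusters 2, 7 and 10 were led by genes of the cell cycle and are called cycling-like (733 and 853 cells). In cluster 7 more of the S-phase markers were raised and in cluster 2 more of the mitotic ones, and cluster 10 had both, with 11 of 14 S-phase and 12 of 15 mitotic markers raised at least 2-fold. Cluster 9 was fibroblast-like (254 and 180 cells), led by Spp1 and Mmp3, and cluster 5 smooth-muscle-like (339 and 246 cells). The pluripotent-like cells were deeper, with a median of 28768 and 26097 UMIs per cell against 15214 and 13651 in the other cells. They also held more RNA of S-phase markers (12.5 and 12.2 against 4.22 and 3.88 UMIs per 10000, summed over 14 genes) and of mitotic markers (18.8 and 18.6 against 7.95 and 6.89, over 15 genes). Several marker lists of other cell types were higher there as well. The summed level of neural markers was 7.53 and 5.51 against 1.65 and 1.24 (7 genes, 1 at 0), and that of epithelial markers 2.22 and 3.30 against 0.745 and 0.594 (11 genes). Trophoblast markers summed to 0.413 and 0.583 against 0.0266 and 0.0373 (6 genes, 2 at 0) and keratinocyte markers to 0.981 and 0.907 against 0.435 and 0.265 (7 genes, 2 at 0). Fibroblast markers were lower (3.48 and 2.84 against 49.3 and 35.2, 11 genes). The part of these markers in what follows was not tested. There were 12 cell barcodes that occurred in both libraries.

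The first question was which Polycomb genes differed between the pluripotent-like cells and the rest of the culture. Most of PRC2 was higher in pluripotent-like cells, led by its accessory subunits Mtf2 and Jarid2, and the enzyme Ezh1 was lower. Of the 8 members that had a mean of at least 0.1 UMIs per 10000 over all cells, 7 were higher and 1 was lower (limma, adjusted p below 0.05 over 7131 genes). Over all genes 31.5% were called higher and 46.2% lower, 77.7% in either direction. The median log2 fold of the 8 members was 1.55. That of all genes was -0.16, so a gene at 0 in this fit stood slightly above the typical gene. All levels are means over cells of UMIs per 10000 UMIs of the cell, and log2 folds are on the scale of that level plus 0.1, which understates the change of low genes. Cells were put in classes by other genes of the same cells. An exact two-sided test that flips the sign of 2 library differences has 0.5 as its smallest p.

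**Figure D1:**
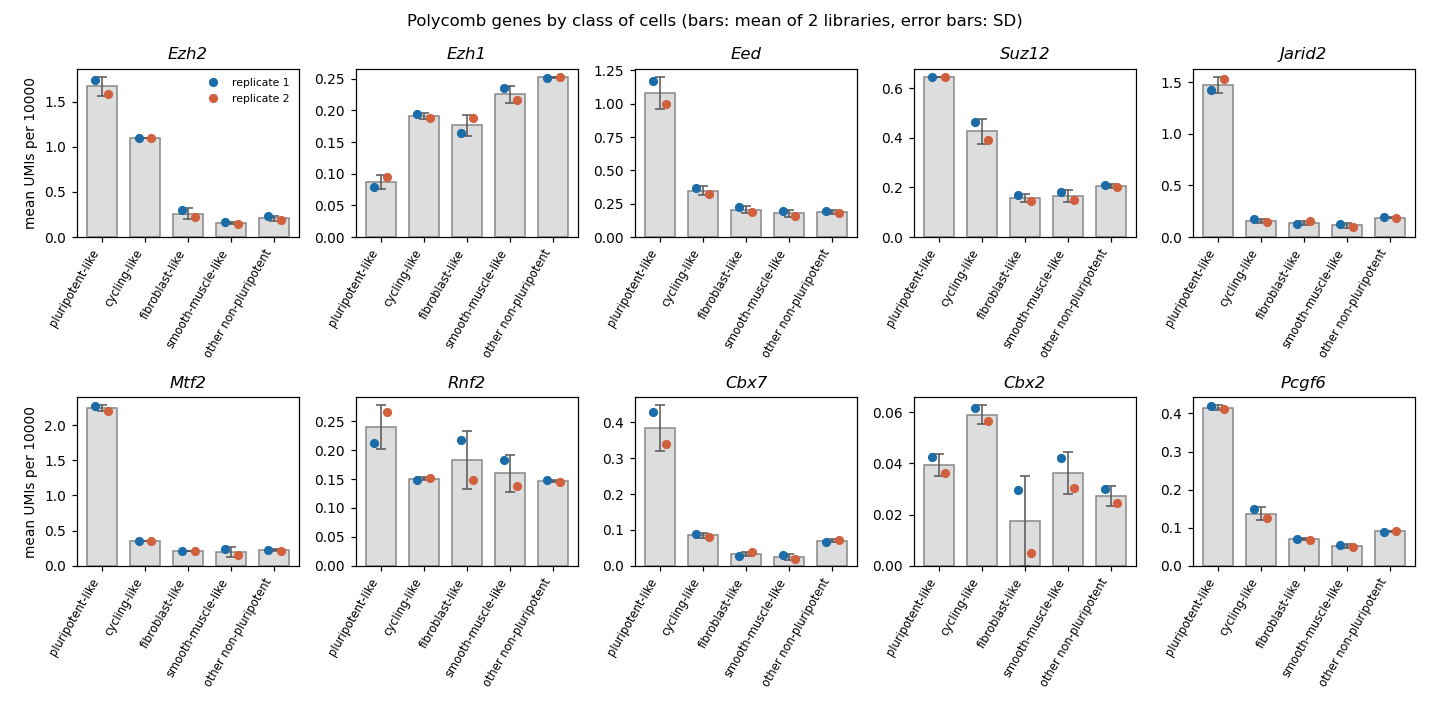
Level of each Polycomb gene (mean UMIs per 10000, vertical axis, starting at 0 and scaled per gene) in 5 classes of cells (other non-pluripotent cells include the fibroblast-like and smooth-muscle-like ones), with bars for the mean of 2 libraries, error bars for the SD and points for each library. Ezh2 stood at 1.67 in pluripotent-like, 1.10 in cycling-like and 0.209 in other non-pluripotent cells, Mtf2 and Jarid2 stood at 2.24 and 1.48 in pluripotent-like cells, and Ezh1 was at 0.0869 there.

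The enzymes of PRC2 moved apart. Ezh2 had a level of 1.75 in replicate 1 and 1.59 in replicate 2 in the pluripotent-like cells, against 0.444 and 0.409 in the other cells. Both pluripotent-like values thus lay above both others, and the ratio within a library was 3.93 and 3.89 (log2 fold 1.75 ± 0.09 SE, adjusted p 2.6e-07 by limma). Ezh1, which forms a less active enzyme and is known from cells that have stopped dividing, had 0.0791 and 0.0946 against 0.237 in both libraries. It was lower in 2 of 2 libraries (log2 fold -0.85 ± 0.09 SE, adjusted p 2.4e-05 by limma), and its 34 and 96 UMIs in the pluripotent-like cells are few. Ezh1 was under the minimum of 0.1 there and entered this test, and the other comparisons of pluripotent-like cells, through the cells where it was higher.

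Both partners that the enzymes need were higher. Eed, which binds the methylated histone and switches the enzyme on, had 1.17 and 0.996 against 0.239 and 0.212 (log2 fold 1.86 ± 0.09 SE, adjusted p 2.0e-07 by limma). Suz12, the scaffold of the complex, had 0.645 and 0.646 against 0.272 and 0.246 (log2 fold 1.06 ± 0.09 SE, adjusted p 5.8e-06 by limma). The rise of Suz12 was thus 2.37-fold and 2.63-fold in the 2 libraries, and that of Eed was 4.88-fold and 4.69-fold.

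The accessory subunits had the largest differences of the members. Mtf2 (Pcl2), which binds DNA and carries PRC2 to unmethylated CpG-rich sites, had 2.27 and 2.21 against 0.262 and 0.246, a ratio of 8.65 and 8.97 (log2 fold 2.72 ± 0.09 SE, adjusted p 2.5e-08 by limma). Jarid2, a member of the Jumonji family that has no demethylase activity and takes PRC2 to its targets in embryonic stem cells, had 1.42 and 1.53 against 0.185 and 0.175, a ratio of 7.67 and 8.75 (log2 fold 2.49 ± 0.09 SE, adjusted p 4.6e-08 by limma). For both genes the groups lay far apart in each library.

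Members of PRC1 differed less evenly. Pcgf6, which with Mga and L3mbtl2 forms the variant PRC1 that silences germ-line genes, had 0.419 and 0.411 against 0.104 and 0.0995 (log2 fold 1.35 ± 0.09 SE, adjusted p 1.1e-06 by limma). Rnf2, the ligase shared by all forms of PRC1, had 0.213 and 0.266 against 0.148 and 0.147. Its difference was the smallest of those called (log2 fold 0.45 ± 0.10 SE, adjusted p 0.0021 by limma), and it was lost when each cell was thinned to 4000 UMIs (log2 fold 0.28, adjusted p 0.32). Cbx7, the Cbx protein of PRC1 in embryonic stem cells, and Cbx2, a Cbx protein of differentiating cells, averaged under 0.1 over all cells, too low for the main fit. Cbx7 had 0.428 and 0.338 in pluripotent-like cells against 0.0731 and 0.0748 in the others, a ratio of 5.86 and 4.52. In a fit with no minimum its log2 fold was 1.47 (SE 0.09, limma adjusted p 0.0081). Cbx2 had 0.0424 and 0.0362 (18 and 40 UMIs) against 0.0378 and 0.0322, which overlap between the groups (log2 fold 0.05 with no minimum ± 0.03 SE, adjusted p 0.41 by limma).

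Some members share sequence with another gene, and this assay reads 3' ends. In the last 500 bases of the transcripts, matches of at least 150 bases were found for Mtf2 and Rnf2 alone. The other overlaps below are of exons anywhere in the gene. The sources used here do not say whether the counting used the strand. Cbx7 overlaps an exon of Apobec3 on the opposite strand, and Apobec3 was at 0.936 and 1.07 in pluripotent-like cells against 0.357 and 0.348 in the others. Mtf2 overlaps Tmed5 and Rnf2 overlaps Trmt1l in the same way. Tmed5 was at 0.142 and 0.166 against 0.208 and 0.170, and Trmt1l at 0.133 and 0.180 against 0.175 and 0.161, so Tmed5 was lower in the pluripotent-like cells of both libraries and Trmt1l overlapped between the groups. The last 500 bases of Mtf2 transcripts are also 91.8% identical over 329 bases to Gm49301, a gene that is not in the table. Eed, Ezh2 and Suz12 overlap genes on the opposite strand as well. Those of Ezh2 (Gm26625) and Suz12 (Gm26563) were under 0.005 in every group and library, and that of Eed (E230029C05Rik) is not in the table. The levels of all 6 are uncertain to that extent.

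Since pluripotent-like cells held much cell-cycle RNA, the next comparison asked which members differed with the cell cycle outside pluripotency. Cycling-like clusters were set against the other non-pluripotent cells. Of the 8 tested members, 5 were higher and 2 were lower in the cycling-like cells, where 30.9% of all 7131 genes were called higher and 29.6% lower, 60.5% in either direction (limma). Ezh2 stood out. Its level was 1.10 in the cycling-like cells of both libraries and 0.228 and 0.189 in the other non-pluripotent cells (log2 fold 1.96 ± 0.06 SE, adjusted p 3.3e-09 by limma). Suz12 (0.462 and 0.389 against 0.210 and 0.200, log2 fold 0.78) and Eed (0.370 and 0.323 against 0.196 and 0.177, log2 fold 0.64) were higher by less, as were Mtf2 (log2 fold 0.51) and Pcgf6 (log2 fold 0.31), with SEs of 0.06 and limma adjusted p of at most 0.0014. Pcgf6 was under 0.1 in the other non-pluripotent cells (0.0892 and 0.0913) and entered the test through the rest. With no minimum level its adjusted p was 0.056.

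Ezh1 was lower in the cycling-like cells, at 0.194 and 0.187 against 0.251 and 0.253 (log2 fold -0.28 ± 0.06 SE, adjusted p 0.0018 by limma). Jarid2 was barely called, at 0.173 and 0.144 against 0.189 and 0.185 (log2 fold -0.15 ± 0.06 SE, adjusted p 0.048 by limma), and 7 of 12 tested alternatives put it past the threshold, with adjusted p of up to 0.48. The cycling-like clusters were not alike in Jarid2. Its log2 ratio to its median over clusters was -0.98 in cluster 10, 0.07 in cluster 7 and -0.07 in cluster 2. Rnf2 had 0.149 and 0.152 against 0.148 and 0.145 (log2 fold 0.02 ± 0.06 SE, adjusted p 0.74 by limma). Cbx2, too low for the main fit, had 0.0615 and 0.0564 against 0.0300 and 0.0244, a ratio of 2.05 and 2.31 (log2 fold 0.32 with no minimum ± 0.02 SE, adjusted p 0.017 by limma), while Cbx7 had 0.0901 and 0.0798 against 0.0675 and 0.0732.

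The pluripotent-like cells were then set against the cycling-like cells alone, an alternative chosen after seeing the data. Again 7 of the 8 tested members were higher and Ezh1 was lower, where 26.3% of all genes were called higher and 46.4% lower, 72.7% in either direction (limma). The size of the difference changed by gene. For Ezh2 the log2 fold was 0.56 (SE 0.08, limma adjusted p 0.0012) and for Suz12 0.51 (SE 0.09, adjusted p 0.0025), against 1.75 and 1.06 when all other cells were taken. For Jarid2 it was 2.61 (SE 0.10), for Mtf2 2.36 (SE 0.08) and for Eed 1.40 (SE 0.08), with limma adjusted p of at most 2.5e-05. Pcgf6 (1.12), Rnf2 (0.44) and Ezh1 (-0.64) passed as well. Cbx2 was lower in pluripotent-like than in cycling-like cells in both libraries, with a ratio of 0.689 and 0.642, and was not tested.

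**Figure D2:**
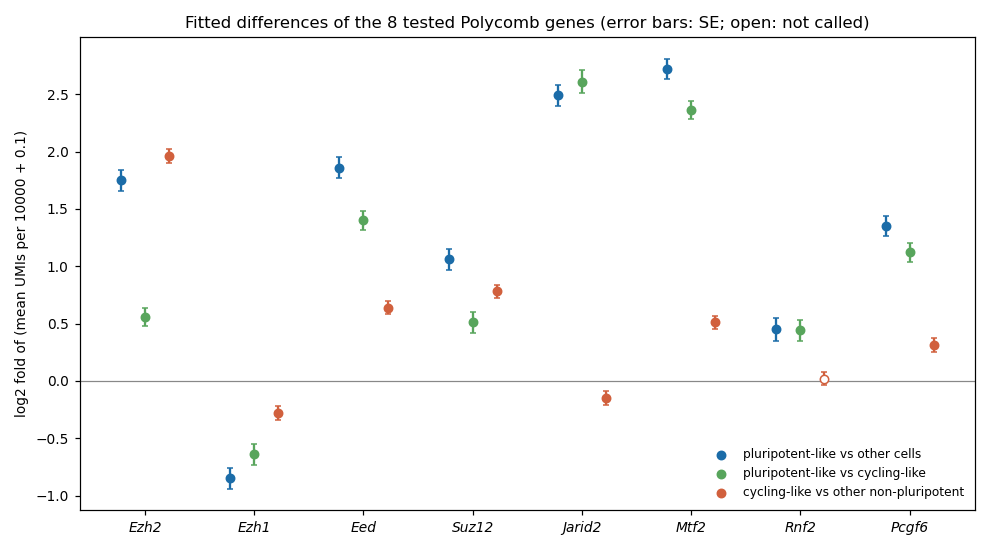
Fitted log2 folds of the 8 tested Polycomb genes (vertical axis, on the scale of mean UMIs per 10000 plus 0.1) for 3 comparisons, with error bars for the SE and an open circle where the adjusted p was not below 0.05. For Ezh2 the cycling-like cells differed from the other non-pluripotent cells by 1.96 and the pluripotent-like cells from the cycling-like ones by 0.56, and for Jarid2 these values were -0.15 and 2.61.

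A finer look was had by putting the cells of each library in tertiles by the share of their UMIs that came from 29 S-phase and mitotic markers. No pluripotent-like cell lay in the lowest tertile. In the highest tertile were 146 of 146 pluripotent-like cells of replicate 1 and 362 of 391 of replicate 2, so the members could not be compared at a low cell-cycle share. Among the other cells Ezh2 was at 0.167 and 0.162 in the lowest tertile, 0.199 and 0.197 in the middle tertile and 1.05 and 1.04 in the highest. Suz12 had the same shape at a smaller scale (0.204 and 0.187, then 0.196 and 0.210, then 0.439 and 0.375). Jarid2 had 0.191 in both libraries in the lowest tertile and 0.170 and 0.143 in the highest. Within the highest tertile the pluripotent-like cells still had more Mtf2 (2.27 and 2.24 against 0.355 and 0.350, log2 fold 2.38, limma adjusted p 2.6e-07) and Jarid2 (1.42 and 1.55 against 0.170 and 0.143, log2 fold 2.63, adjusted p 3.0e-07). They had more Ezh2 too (1.75 and 1.66 against 1.05 and 1.04), with a log2 fold of 0.66 (limma adjusted p 1.7e-04).

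**Figure D3:**
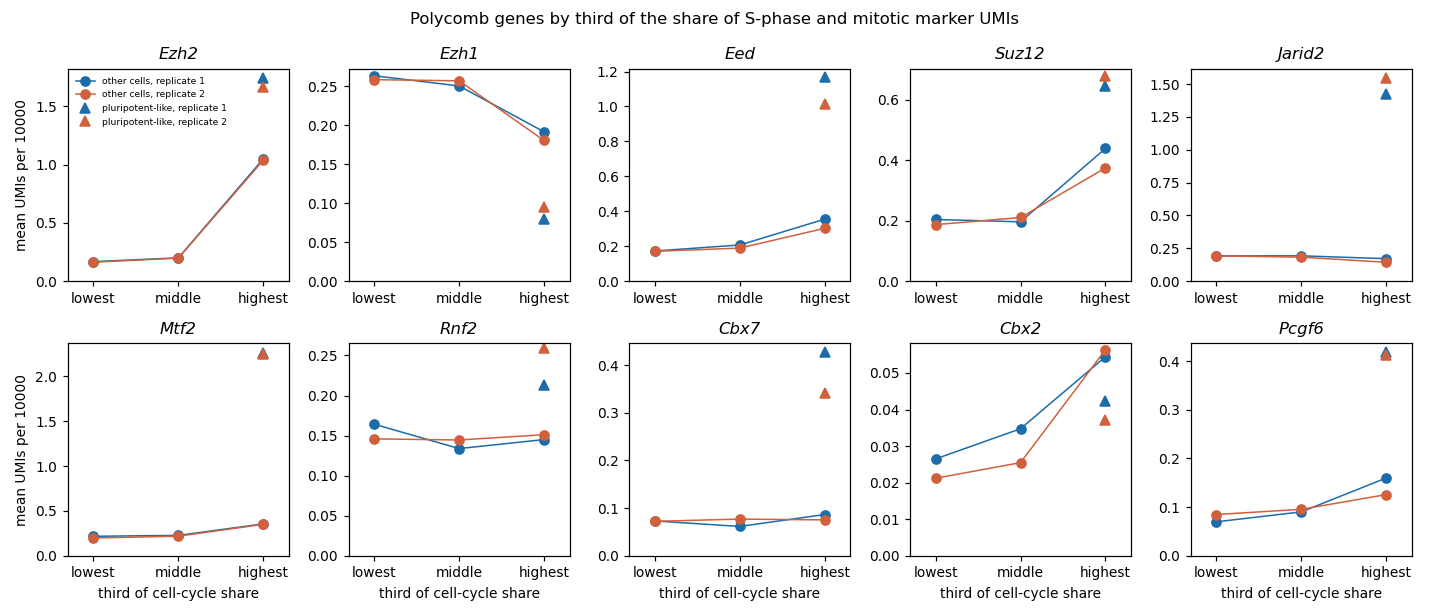
Level of each Polycomb gene (mean UMIs per 10000, vertical axis, scaled per gene) by tertile of the share of cell-cycle marker UMIs, with circles and lines for the other cells and triangles for the pluripotent-like cells, coloured by library. Only the highest tertile held enough pluripotent-like cells in both libraries, and there Ezh2 of the other cells reached 1.05 and 1.04 while Mtf2 stayed at 0.355 and 0.350.

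The order of the 12 clusters showed how the members varied among the non-pluripotent cells. Neighbours in an order are called apart here where both libraries of one lay above both of the next. Of the 10 members, 8 had their highest mean in the pluripotent-like cluster. For 7 of them, Ezh2, Eed, Suz12, Jarid2, Mtf2, Cbx7 and Pcgf6, both libraries lay above those of all 11 other clusters. Rnf2, the other one, was at 0.213 and 0.266 there and at 0.218 and 0.148 in the fibroblast-like cluster, so these overlapped. Ezh1 was below all 11 others in both libraries. Ezh2 went through 3 steps, with 1.67 ± 0.110 (SD, n = 2) in the pluripotent-like cluster, between 1.03 and 1.13 in the 3 cycling-like clusters, and between 0.128 and 0.261 in the other 8. The 3 cycling-like clusters were not apart from each other, and the last of them was apart from the fibroblast-like cluster that followed. Over the 11 non-pluripotent clusters of this order Ezh2 ranged 8.84-fold, and Suz12 3.20-fold with the same 3 cycling-like clusters on top. The epithelial-like cluster (68 and 4 cells) was too small for this order. Its Ezh2 was at 0.865 and 1.67 (142 and 17 UMIs), where pluripotent-like cells had 1.75 and 1.59.

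Other members ordered the non-pluripotent clusters in another way. Among the non-pluripotent clusters with at least 30 cells in both libraries, Jarid2 was highest in cluster 0, led by Dmrtc2 and Acsbg1. It had 0.262 ± 0.0262 (SD, n = 2) there, and its lowest was 0.0909 ± 0.0277 in the cycling-like cluster 10. In the epithelial-like cluster that was too small for this order (68 and 4 cells), Jarid2 was at 0.3065 and 0.6885 (52 and 7 UMIs). Ezh1 was highest in cluster 8, led by Mmp11 (0.349 ± 0.0116), followed by cluster 1, led by Rarres2 (0.308 ± 0.0492), and these were not apart. Cbx7 was lowest in the smooth-muscle-like cluster 5 (0.0247 ± 0.00754) and the fibroblast-like cluster 9 (0.0332 ± 0.00684), which were not apart either. Rnf2 was the flattest in this clustering, with a range of 1.71-fold outside pluripotency. With 4000 variable genes Ezh1 (1.84-fold) and Rnf2 (1.85-fold) had nearly the same range. The cluster levels of Rnf2 had a correlation of 0.643 between the libraries, against 0.803 to 0.999 for the other 9 members. Cbx2 was highest in the cycling-like clusters 7 (0.0714 ± 0.0107) and 10 (0.0709 ± 0.0170), which were apart from the next.

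**Figure D4:**
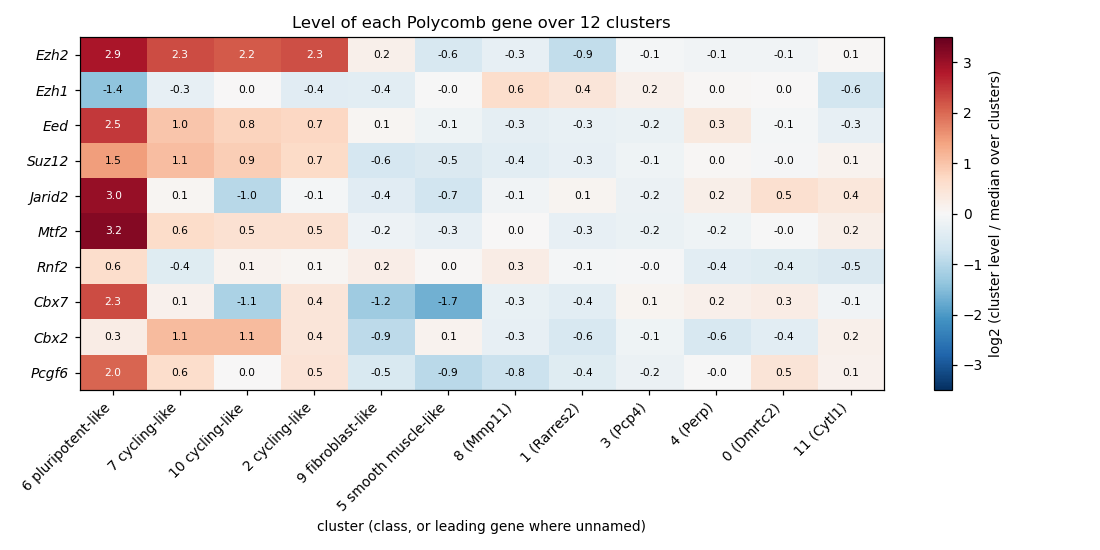
Heatmap of the 10 Polycomb genes (rows) over the 12 clusters with at least 30 cells in both libraries (columns), where colour and number give the log2 ratio of the cluster level to the median of the gene over the clusters. Ezh2 was raised in the pluripotent-like cluster (2.9) and in 3 cycling-like clusters (2.2 to 2.3), and Mtf2 and Jarid2 in the pluripotent-like cluster (3.2 and 3.0) with at most 0.6 elsewhere.

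Across the 11 non-pluripotent clusters the log2 levels of Ezh2 and Suz12 had a Pearson correlation of 0.920 in replicate 1 and 0.865 in replicate 2, and those of Ezh2 and Mtf2 of 0.902 and 0.908. Jarid2 went with Cbx7 (0.783 and 0.633) and not with Ezh2 (-0.130 and -0.388). These are descriptions over clusters that share their libraries. The genes outside the Polycomb lists that were most like Ezh2 over all 12 clusters were H2afx (mean correlation 0.983), Gmnn (0.976) and Aunip (0.976), among 7083 genes. For Suz12 they were Hat1 (0.981), Hells (0.977) and Smc3 (0.975), and for Eed Mybl2 (0.981), Nfatc2ip (0.962) and Nfyb (0.955). Those nearest to Mtf2 were Cdc5l (0.980), Ash2l (0.971) and Nfatc2ip (0.971), and those nearest to Jarid2 were Mkrn1 (0.966), Cox7b (0.964) and Ldhb (0.955). Ezh1 was most like Tmbim1 (0.925), C1qtnf1 (0.923) and Il1rn (0.895). Cbx7 was most like Hk2 (0.965), Fxr1 (0.954) and 1110008L16Rik (0.949), and Pcgf6 like Gart (0.930), Dnajc21 (0.918) and Ruvbl2 (0.914). The values were lower for Cbx2, with Atad2 (0.893), Meaf6 (0.885) and Pradc1 (0.884), and for Rnf2, with Atf4 (0.860), Nufip2 (0.822) and Ncoa3 (0.816).

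A further comparison set the pluripotent-like cells against cluster 9, whose fibroblast markers summed to 129 and 102 UMIs per 10000. Here 6 of the 8 tested members were higher in pluripotent-like cells and Ezh1 was lower, where 31.4% of all genes were called higher and 44.4% lower, 75.8% in either direction (limma). Ezh2 had 0.301 and 0.220 in cluster 9, which gave a log2 fold of 2.30 with an SE of 0.12 (limma adjusted p 1.1e-06). Mtf2 (0.206 and 0.215 in fibroblast-like cells, log2 fold 2.91) and Jarid2 (0.122 and 0.152, log2 fold 2.74) again had the largest folds, and Eed (1.96), Pcgf6 (1.60) and Suz12 (1.55) followed, each with an SE of 0.12. Pcgf6 was under 0.1 in the fibroblast-like cells and entered the test through the other cells. Rnf2 went either way, with a ratio of 0.979 in replicate 1 and 1.80 in replicate 2 (log2 fold 0.27 ± 0.16 SE, adjusted p 0.15 by limma). Ezh1 was at 0.165 and 0.188 there, a log2 fold of -0.56 with an SE of 0.12 (limma adjusted p 0.0026). Cbx7 was at 0.0284 and 0.0381 there (10 and 9 UMIs) and was not tested in the main fit. This comparison shares its pluripotent-like cells with those above, so the 3 are not independent.

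Other genes of the complexes were taken as lists and compared between pluripotent-like and other cells. Of 7 other subunits of PRC2, 4 had a level high enough to be tested, and 3 were higher, where 31.5% of all genes were. Epop, which the table lists as E130012A19Rik and which links PRC2 to Elongin in embryonic stem cells, had 1.05 and 0.802 against 0.0827 and 0.0589 (log2 fold 2.58 ± 0.09 SE, adjusted p 3.6e-08 by limma), and it entered the test through its high level in pluripotent-like cells. Aebp2, an accessory subunit of the other form of PRC2, that with Jarid2, had 0.545 and 0.581 against 0.319 and 0.301 (log2 fold 0.69). The histone-binding subunit Rbbp4 was higher by less (log2 fold 0.28, limma adjusted p 0.018), and its close relative Rbbp7 had a log2 fold of 0.16 (adjusted p 0.15). Rbbp4 lost its call with a pseudocount of 0.01, UMI-weighted profiles, thinning, or only cells with no Y-linked UMI (limma adjusted p 0.055 to 0.48). In cycling-like against other non-pluripotent cells all 4 were higher (30.9% of all genes were), Rbbp7 (log2 fold 0.74) and Rbbp4 (0.70) the most, then Epop (0.46) and Aebp2 (0.21). Epop was under 0.1 in the other non-pluripotent cells (0.0565) and entered this test through cells where it was higher. Aebp2 lost its call with a pseudocount of 1, no minimum, no replicate block, UMI-weighted profiles or thinning (limma adjusted p 0.051 to 0.17). Against the cycling-like cells alone, Rbbp4 (log2 fold -0.22, limma adjusted p 0.049) and Rbbp7 (-0.36, adjusted p 0.016) were lower in pluripotent-like cells.

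Other subunits of PRC1 were called in both directions. Of 7 tested of 10 canonical subunits, 2 were higher and 5 were lower, and of 11 tested of 16 variant subunits, 4 were higher and 3 were lower. With 31.5% of all genes called higher and 46.2% lower, these counts are not read as a result about PRC1. Phc1, one of the polyhomeotic proteins that let PRC1 form chains, had 0.755 and 0.957 against 0.113 and 0.111 (log2 fold 2.17 ± 0.10 SE, adjusted p 1.9e-07 by limma), and Pcgf2 (Mel18) had a log2 fold of 0.45. The polyhomeotic relatives Phc2 (-0.94) and Phc3 (-0.84) were lower, as were Cbx6 (-0.90), Scmh1 (-0.71) and Ring1 (-0.64), the paralogue of Rnf2. Among the variant subunits Wdr5 (log2 fold 1.88), which also serves in other complexes, Kdm2b (1.54), which brings PRC1 to CpG islands, the deubiquitinase Usp7 (1.32) and Mga (0.92), a partner of Pcgf6, were higher. Phc2, Phc3 and Yaf2 were under 0.1 in pluripotent-like cells and entered the test through the other cells. Yaf2 (-1.31), Pcgf3 (-0.68) and Dcaf7 (-0.43) were lower, and Dcaf7 lost its call after thinning (log2 fold -0.30, limma adjusted p 0.11). Max (-0.20), Pcgf5 (-0.13), Bcor (-0.08) and Auts2 (0.05) did not pass, with limma adjusted p between 0.08 and 0.62. The median log2 fold was 0.48 over the tested PRC2 subunits, -0.71 over the canonical and -0.08 over the variant subunits of PRC1, against -0.16 over all genes. The minimum was a mean over all cells, few of them pluripotent-like, so where a gene was high helped decide whether it was tested. Untested subunits went both ways, such as L3mbtl2 (0.373 and 0.277 against 0.0572 and 0.0516) and Bmi1 (0.0155 and 0.0137 against 0.0711 and 0.0615). These medians are thus not read as a difference between complexes.

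Among the enzymes that undo the marks and their partners, 2 of 6 tested of 7 were higher, near the 31.5% of all genes. These were the H3K27 demethylase Kdm6a (log2 fold 0.41, limma adjusted p 0.0024) and Asxl2 (0.37, adjusted p 0.0042), a partner of the H2A deubiquitinase Bap1. Kdm6a averaged 0.0987 in the other cells, under the minimum, and entered the test through the pluripotent-like cells (0.165). Among cells with 2 or more Y-linked UMIs its call was lost (log2 fold 0.28, limma adjusted p 0.06). Kdm6a, Rbbp7 and Bcor lie on the X chromosome, and the part of X-linked dosage in their levels was not tested. Bap1 itself (0.09), Asxl1 (0.06), Usp16 (0.13) and Kdm6b (0.06) did not pass. The last list held genes known from textbooks as Polycomb targets. Of 36 listed, 33 were in the table and 12 were tested, and all 12 were lower in pluripotent-like cells, 10 of them Hox genes and the others Cdkn2a and Cdkn2b. Hoxa7 had 0.0123 and 0.0129 against 0.381 and 0.374 (log2 fold -2.09), Cdkn2a, which encodes inhibitors of the cell cycle, 0.222 and 0.201 against 1.34 and 0.952 (log2 fold -1.99), and Hoxc8 0.0177 and 0.0141 against 0.388 and 0.303 (log2 fold -1.94), with SEs between 0.09 and 0.11 and limma adjusted p of at most 3.6e-07. Of the 12, 11 were under 0.1 in the pluripotent-like cells and entered the test through the other cells, so their count adds no support. The other 21 were under the minimum and were not tested, and not all of them were lower. Olig2 had 0.0396 and 0.0448 against 0.000585 and 0.000187, and Eomes 0.0193 and 0.0529 against 0.000501 and 0.000688, both named after their values were seen.

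**Figure D5:**
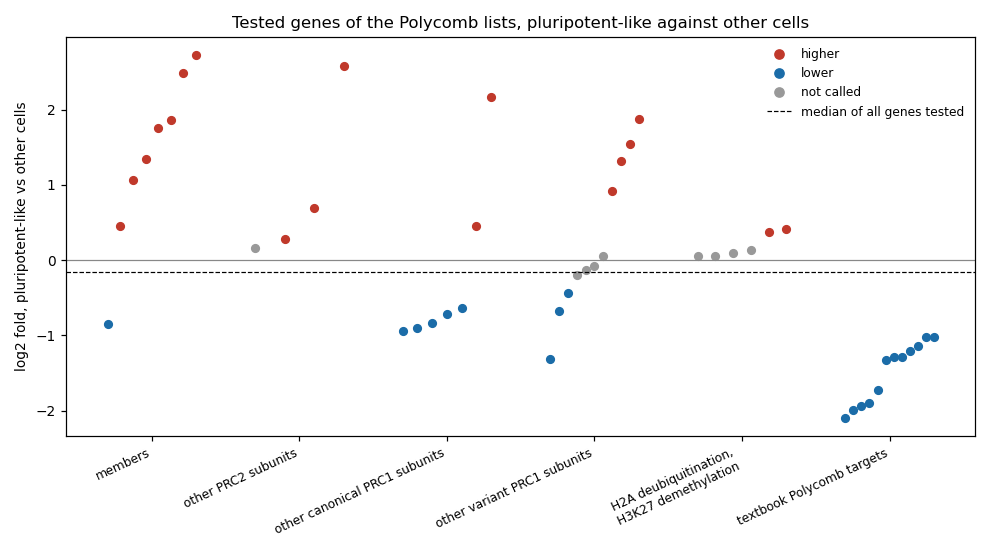
Fitted log2 folds between pluripotent-like and other cells (vertical axis, on the scale of mean UMIs per 10000 plus 0.1) for each tested gene of the 6 lists, coloured by whether it was called higher, lower or not called, with a dashed line at the median of all 7131 genes (-0.16). The 12 tested textbook targets all lay below -1.0, and the canonical subunits of PRC1 held 2 genes above 0 and 5 below.

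Over all cells, without regard to class, the libraries differed most in Mtf2 (0.356 in replicate 1 and 0.442 in replicate 2) and Jarid2 (0.243 and 0.311). Pluripotent-like cells made up 4.70% of replicate 1 and 9.99% of replicate 2. Within the pluripotent-like cells the levels were 2.27 and 2.21 for Mtf2 and 1.42 and 1.53 for Jarid2, and within the other cells replicate 2 was the lower for both.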

How the data were processed

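Droplet single-cell RNA-seq of 2 libraries was used. The authors counted with Cell Ranger (version 2.1.1, mm10) and filtered and normalised with Seurat, and the deposited values are natural log values, ln(1 + UMIs of a gene per 10000 UMIs of the cell). UMIs were recovered by dividing by the smallest linear value in each cell (100% whole within 0.01), giving totals of 54145377 and 64654306 and 4753 to 60990 per cell. Doublets were not called.

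Cells of both libraries were clustered together with scanpy (version 1.11.5) and leidenalg (version 0.10.2), using 2000 variable genes, 30 principal components, 15 neighbours and resolution 1. Sex-linked genes, reprogramming factors and 83 Polycomb list genes were left out. Clusters were named from marker lists (at least 3 markers and 50% of a list raised 2-fold), by a rule set after the clusters had been seen. S phase and mitotic markers did not count against each other.

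Linear values were averaged over the cells of a class in a library. These profiles were compared by limma (version 3.58.1, under R version 4.3.3) as log2(mean + 0.1), in a model of class plus library. It draws the variance of each gene toward a value pooled over all tested genes, so an SE is not that gene's own spread alone. For Mtf2 in pluripotent-like against other cells the SE was 0.09 in the main fit and 0.04 with no minimum. Benjamini-Hochberg adjustment ran over the 7131 genes with a mean of at least 0.1, at a threshold of 0.05. On simulated data for pluripotent-like against other cells (7131 genes) 94% of 50 genes raised 2-fold were found. Of the calls there 11.8% were false, more than the threshold of 0.05 aims at. Far fewer genes were changed there than were called in the real comparison, and the spread between profiles was fixed. These shares need not hold for the real comparison. Ends of transcripts were compared with BLAST (version 2.17.0). Named genes were all members, the 3 list genes of largest fold per list, counts of 5 or fewer, and the 3 genes most like each member over clusters. The members and lists were chosen with earlier results of these data known.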

Additional observations from a re-analysis of the deposited data

How the results depend on the processing

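Each comparison was refitted under other pseudocounts, filters, clusterings, profiles and subsets of cells, and without the library term. Of the tested refits of a member's log2 fold, 310 kept their direction and their side of the threshold, 9 lost the call and 1 changed sign. Many of these refits could hardly differ from the main fit. For pluripotent-like against other cells, resolution 0.5 and 4000 variable genes gave classes of the same size and the same member folds and p-values. At resolution 2 the pluripotent-like cells were 146 and 390, against 146 and 391. No minimum and no library term left the folds as they were. Without replicate 1 or replicate 2 there is a single library and no test. Of these 48 values 1 changed sign, Rnf2 against fibroblast-like cells, which was -0.02 without replicate 2 and was not called with both. The library term is the replicate block, since both classes of a comparison come from the same library. Without the replicate block the cycling comparison called 1366 genes higher and 1154 lower, against 2203 and 2111 with it, and the cause was not tested. With no minimum level more genes were tested, and 3485 were called higher in pluripotent-like than in other cells and 3550 than in fibroblast-like cells. The count of members lower in cycling-like cells fell from 2 to 1 with a pseudocount of 1 or 0.01, no minimum, resolution 2, no replicate block, UMI-weighted profiles or thinning to 4000 UMIs, as Jarid2 was lost each time (log2 fold between -0.23 and -0.04). With strict names of clusters, which leave cluster 7 unnamed and were chosen after seeing the data, the members called were the same in number. Of the level results taken again at other clusterings, 12 moved and 21 did not. Those that moved were highest levels of members outside pluripotency. The range of Cbx7 outside pluripotency was 4.26-fold in the main clustering, 8.28-fold at resolution 0.5 and 11.3-fold at resolution 2.

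Ezh2 moved with the cells compared, as its log2 fold against other cells was 0.66 in the highest tertile of the cell-cycle share and 0.56 against cycling-like cells, and up to 2.03 in other refits. Thinning turned Rnf2 against fibroblast-like cells to -0.09. Of the other Polycomb genes, those near 0 changed sign between pluripotent-like and other cells. In the highest tertile these were Rbbp4 (-0.16), Rbbp7 (-0.35), Auts2 (-0.16), Bap1 (-0.15) and Asxl1 (-0.20). Against cycling-like cells they were Rbbp4 (-0.22), Rbbp7 (-0.36), Auts2 (-0.12), Bap1 (-0.20) and Asxl1 (-0.27). In cells with no Y-linked UMI they were Pcgf5 (0.04), Bcor (0.06), Auts2 (-0.19) and Asxl1 (-0.04). The X-linked Rbbp7 was at -0.20 in cells with 2 or more Y-linked UMIs and at 0.31 in cells with no Y-linked UMI. Usp16 was at -0.03 after thinning. The lowest tertile held no pluripotent-like cell, and the highest held too few fibroblast-like cells, so those fits were not run. In pluripotent-like cells the fewest UMIs were those of Cbx2 (18 and 40), Ezh1 (34 and 96) and Rnf2 (89 and 250).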

Other observations

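Within the pluripotent-like cells the Polycomb genes were also read in cells with and without RNA of Dppa3, a gene of late reprogramming. Cells with 0 UMIs of Dppa3 (57 in replicate 1 and 179 in replicate 2) had 1.28 and 1.39 UMIs per 10000 of Jarid2, and cells with 2 or more (78 and 144) had 1.58 and 1.72. Ezh2 was at 1.76 and 1.65 in the former and at 1.74 and 1.60 in the latter, and Mtf2 at 2.39 and 2.24 against 2.15 and 2.18. Cells with 2 or more UMIs were deeper, with a median of 30140 and 27090 UMIs per cell against 27520 and 24100. These differences were not tested.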
